A study of Mus musculus with 6 samples.

Results

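Mirtrons are miRNAs whose hairpins are released from introns by splicing. In mouse, most of them were registered in the block of numbers from miR-6896 to miR-7094. All miRNAs of the deposited table with a number in this block were taken, whatever their level, which gave 265 of 1393 annotated miRNAs. They were 139 3p arms and 126 5p arms of 171 hairpins, and both arms were listed for 94 hairpins. They are called mirtron-block miRNAs here, since the number and not a test of each hairpin put them in the set.

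The tested animals were hα-syn(A53T) + Ang-(1-7) mice, in which the human A53T form of α-synuclein was overexpressed. They received angiotensin-(1-7), a peptide that acts on the Mas receptor. It was infused above the right substantia nigra (SN) for 4 weeks (0.25 μL, holding 1.1 nmol, each hour). The hα-syn(A53T) mice carried the same transgene and received artificial cerebrospinal fluid at 0.25 μL per hour for 4 weeks. The sample labels give the animals as an overexpressing strain, whereas the methods describe male C57BL/6J mice with an AAV vector injected into the right substantia nigra pars compacta, so both groups lack animals without the transgene, and libraries of control mice were not analysed here. Small RNA of the right SN was sequenced in 3 libraries per group. The sources used here do not tell whether each library was made from 1 mouse or from a pool. The p-values therefore measure spread among libraries, and this spread may be technical.

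Most miRNAs are cut from a long transcript by the nuclease Drosha and then trimmed by Dicer. A mirtron takes another way in, because splicing releases the intron, the lariat is opened by the debranching enzyme, and the intron folds into a hairpin that goes straight to Dicer. Where a hairpin fills only one end of the intron, the rest forms a tail that has to be trimmed first, and in mammals most such tails lie on the 5′ side. Because the 3p arm then ends at the splice acceptor, it tends to end in the letters AG and to be rich in pyrimidines, as the end of an intron is.

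The sequences of the miRNAs that the results turn on, the most abundant ones and those with the smallest p-values, come from RefSeq (GRCm38.p6) and are written 5′ to 3′ with the seed, bases 2 to 8, in capitals. The seed is the stretch that pairs first with a messenger RNA. Of the miRNAs described below, 3 were not matched to this table (miR-6952-3p, miR-6982-3p and miR-6971-3p), and over the set 237 of 265 were matched.
miR-7043-3p: aCUGUGCCucucuguuuucag
miR-6896-5p: uUUGUAGGcgacgagaacccgu
miR-6899-3p: uUGUCCUUcugugucuucugcag
miR-6944-3p: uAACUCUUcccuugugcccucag
miR-7080-3p: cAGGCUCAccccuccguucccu
miR-7015-3p: uCUCACUGuccucugcacuag
miR-6911-3p: uCAAUCACacucuguccacag
miR-6966-3p: uGCUGUGUgcuuccucugcag
miR-6958-3p: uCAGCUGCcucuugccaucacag
miR-6945-3p: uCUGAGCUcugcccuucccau
miR-6977-3p: aAGGCGUUgccugacccugacc
miR-6938-3p: uCAUCUGGggcugucuccuuag
miR-6999-3p: cUUCAGCUguccuccuuucugu
miR-6934-5p: uUGGUGGAgacagcaagggugg
miR-6947-5p: cAUCCAGUggagaggcucgug
miR-6929-3p: cAGGUGCUgucuucuucuuccag
These 16 sequences have 16 different seeds, and 0 of these seeds is held by another miRNA of the table that has a RefSeq sequence. Of the 13 3p arms among them, 9 end in AG. Over the set, the 237 matched miRNAs had 225 distinct seeds, and 11 seeds were held by more than 1 of them, such as GUGGGAG, shared by miR-6922-5p, miR-6993-5p and miR-7008-5p. A further group shared a seed with better known miRNAs outside the block, such as miR-6921-5p with miR-423-5p (GAGGGGC) and miR-6932-3p with miR-26a-2-3p and miR-26b-3p (CUGUUCU).

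Most hairpins of the block lay at the end of an intron. Since the block was taken because mirtrons were registered in it, this position describes the set and is not an independent result. Of 154 hairpins with a position in GRCm38, 135 (87.7%) reached only the 3′ end of an intron of their host gene, within 5 bases, 8 reached both ends and 3 only the 5′ end. The remaining hairpins were 1 inside an intron and 7 that overlapped an exon. In 142 hairpins (92.2%) the last base of the hairpin was the last base of the intron, against 16 of 580 hairpins (2.76%) of the other annotated miRNAs. The 154 hairpins lay in 152 host genes, so nearly every hairpin had a host of its own. The 8 hairpins that filled a whole intron lay in introns with a median of 77 bases, and the 135 at a 3′ end in introns with a median of 569 bases.

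**Figure D1:**
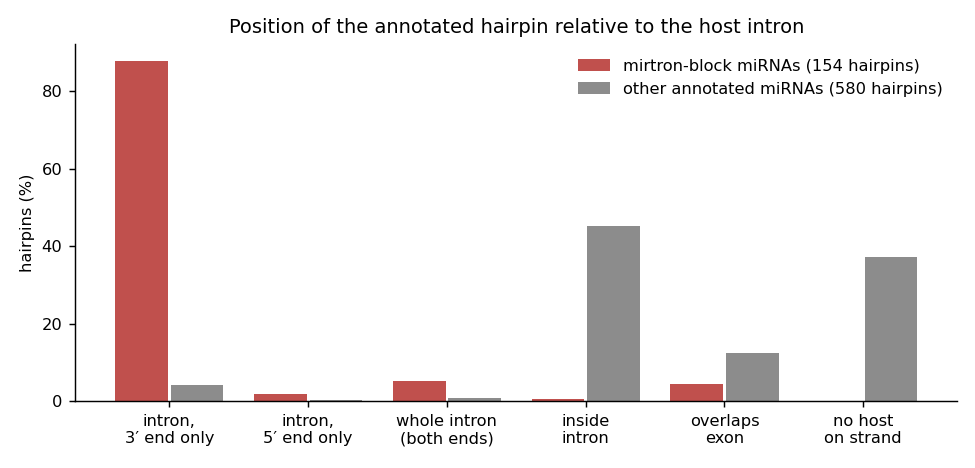
Share of hairpins (%) by their position in GRCm38 relative to introns of the host gene on the same strand, for the mirtron-block miRNAs (red, 154 hairpins) and the other annotated miRNAs (grey, 580 hairpins). Of the first set 87.7% reached only the 3′ end of an intron, and of the second 4.14%.

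The mature sequences carried the marks of the intron ends, which follow from this position and are likewise a description of the set. Among matched 3p arms, 96 of 122 (78.7%) ended in AG and 65.6% in CAG, against 10.5% and 5.4% of 427 3p arms of the other annotated miRNAs. The median share of C and U was 72.5% in these 3p arms and 54.5% in the other 3p arms. The 5p arms were rich in G, with a median of 42.9% against 28.0% in the other 5p arms. The GU that begins an intron was at the start of only 6.1% of the 5p arms, and most hairpins of the set lie at the other end. An exact match in a GENCODE transcript that is no miRNA was found for 33 of the set. By sequence alone, reads of these cannot be told from fragments of such transcripts. For miR-6912-3p and miR-6912-5p the match included a gene under another name than the host (Gm49322), Scamp4. Matches were compared by gene name, so whether both names cover the same genomic copy was not tested. No matched mirtron-block miRNA shared 16 or more bases with another miRNA of the table that has a RefSeq sequence. The 28 of the set that were not matched could not be compared.

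The hosts of the most abundant members have known roles in neurons and elsewhere. miR-6944 fills a 96-base intron of Dbn1, which encodes drebrin, an actin-binding protein of dendritic spines. miR-7080 fills a 67-base intron of Cpne7, a copine that binds membranes when calcium is present, and miR-6958 a 73-base intron of Dennd6b, which activates Rab proteins. miR-7043-3p (chr6:116645978-116645998, minus strand) ends an intron of Rassf4, of the Ras-association family, and miR-6899-3p (chr1:64042438-64042460, minus strand) ends a 36269-base intron of Klf7, a transcription factor of developing neurons. miR-6896-5p (chr1:34117364-34117385, plus strand) belongs to a hairpin at the end of an intron of Dst, the cytoskeletal linker dystonin. miR-6911 lies in Dazap1, an RNA-binding protein, miR-6966 in Narfl, a factor for iron-sulfur proteins, and miR-6945 in Pdlim7, a scaffold of the actin cytoskeleton.

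The libraries were similar in depth. Reads of annotated miRNAs numbered 15522980 to 16571363 per library with Ang-(1-7) and 14796519 to 17088611 per library without it, and 1 read was worth 0.907 to 1.10 normalized counts, the read count divided by the size factor of the library. The tissue was neural, since the 4 neuron-enriched miRNAs miR-124-3p, miR-9-5p, miR-128-3p and miR-138-5p summed to 2966276 to 4048172 normalized counts with Ang-(1-7) and 2702353 to 3020462 without it, and 2 of 4 passed the test between the groups, miR-138-5p as higher and miR-124-3p as lower. Some markers of other tissues differed between the groups, and 0 of the listed markers was at 0 in all libraries. The 5 epithelial markers, led by miR-200a-3p, summed to 160432 to 477765 with Ang-(1-7) and 2863 to 8497 without it, with all 5 higher. The 3 muscle markers, among them miR-206-3p, summed to 14872 to 21779 with Ang-(1-7) and 41728 to 86139 without it, with all 3 lower, and of the 3 red blood cell markers 1 passed, miR-486a-5p, which was lower. The sum of these 3 (1542 to 1801 with Ang-(1-7) and 3609 to 6893 without it) is mostly miR-486a-5p, while miR-451a had 145, 450 and 367 normalized counts with Ang-(1-7) and 155, 162 and 167 without it, and miR-144-3p had overlapping groups. The 2 markers of hindbrain and spinal cord ran from 1370 to 31724 with Ang-(1-7), highest in replicate 3, and from 12658 to 74576 without it, and 0 of 2 passed in limma (2 lower at an unadjusted p under 0.05). Nor did any of 2 markers of oligodendrocytes (2 lower at an unadjusted p under 0.05), 3 of microglia and leukocytes or 2 of endothelium (0 at an unadjusted p under 0.05). In bulk tissue, fewer cells of a type and less RNA per cell cannot be told apart. The part of these cell types in the levels of the mirtron-block miRNAs was not tested.

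Mirtron-block miRNAs were few in reads. Their reads numbered 1195, 885 and 1192 with Ang-(1-7) and 1106, 1166 and 1096 without it, 6640 in all. As a share of annotated reads this was 76.98 (95% interval 72.68 to 81.47), 55.6 (51.99 to 59.38) and 71.93 (67.91 to 76.13) per 1000000 with Ang-(1-7), and 74.75 (70.41 to 79.29), 70.11 (66.14 to 74.25) and 64.14 (60.4 to 68.05) per 1000000 without it, with exact Clopper-Pearson intervals that cover counting error only. Ang-(1-7) replicate 2 was lowest and Ang-(1-7) replicate 1 highest, so the groups overlapped. Of all these reads, the 3 most abundant miRNAs held 15% and the 12 most abundant 39.4%.

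Most were detected in some libraries only. At least 1 read was present for 155, 139 and 172 of 265 with Ang-(1-7) and for 148, 167 and 167 of 265 without it, 52.5% to 64.9% of the set, against 82.3% to 85.5% of the 1128 other annotated miRNAs. At least 10 reads were present for 28, 28 and 29 with Ang-(1-7) and for 28, 31 and 31 without it, so about the same number of miRNAs carried the set in every library. A read was seen in all 6 libraries for 77 miRNAs (29.1%, against 69.4% of the others). At the other end 61 were seen in 1 library, 41 of them with a single read in the whole experiment. A miRNA with 0 reads in a library may have had up to 3 reads at this depth, which is 0.176 to 0.203 per 1000000.

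Their levels were low throughout. The median of the mean normalized count was 1.02 over the 265 and 28.7 over the others. Of the set, 135 had a mean of at least 1, 49 of at least 5, 27 of at least 10 (10.2%, against 59.4% of the others) and 3 of at least 50, and the highest was 59.7. Among matched 3p arms, those ending in AG had a median of 1.18 over 96 and those not ending in AG a median of 1.79 over 26, and the 115 matched 5p arms had a median of 0.677.

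**Figure D2:**
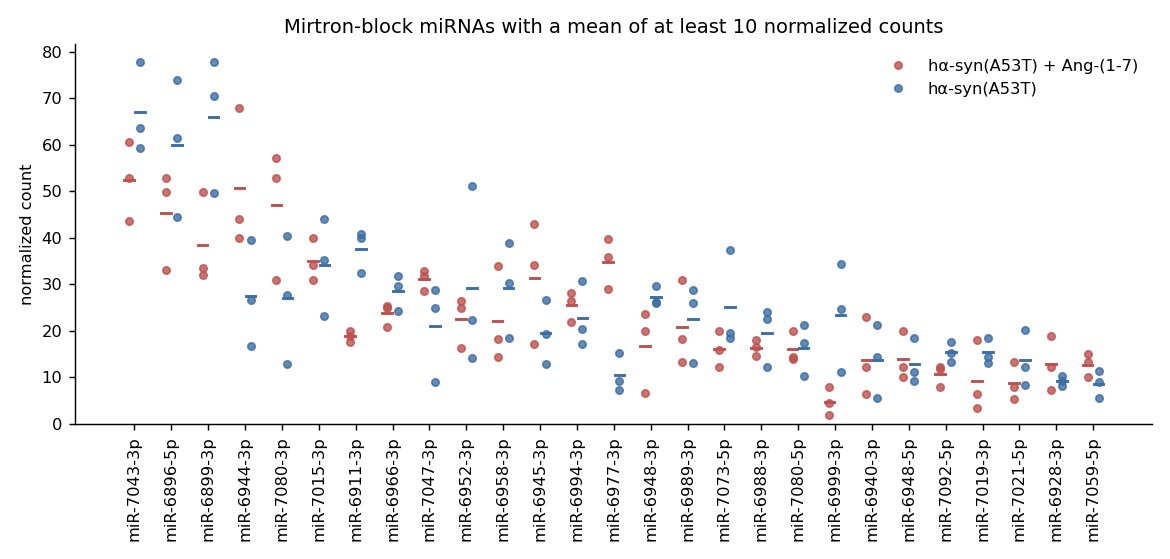
Normalized counts of the 27 mirtron-block miRNAs with a mean of at least 10, ordered by mean; points are libraries (hα-syn(A53T) + Ang-(1-7) red and left, hα-syn(A53T) blue and right, 3 each) and lines are group means. The groups overlap for most of them, and miR-6977-3p, miR-6911-3p and miR-6999-3p are among those where they do not.

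miR-7043-3p, from the Rassf4 intron, was the most abundant, at 52.9, 60.6 and 43.5 normalized counts with Ang-(1-7) and 77.9, 59.3 and 63.7 without it. Its groups overlapped, and the log2 fold change, Ang-(1-7) over hα-syn(A53T), was -0.35 (SE 0.29, adjusted p = 0.503 from limma). miR-6896-5p, from the Dst intron, followed at 52.9, 33.1 and 49.9 with Ang-(1-7) and 61.5, 44.5 and 73.9 without it. These overlapped too, with a log2 fold change of -0.40 (SE 0.33, adjusted p = 0.513 from limma). miR-6899-3p, from the Klf7 intron, stood at 49.9, 32.0 and 33.6 with Ang-(1-7) and 77.9, 70.4 and 49.6 without it. Only its highest Ang-(1-7) library reached the lowest hα-syn(A53T) library, and the log2 fold change was -0.77 (SE 0.32, unadjusted p = 0.0401, adjusted p = 0.195 from limma). Over the 6 libraries these 3 had means of 59.7, 52.6 and 52.2 normalized counts, closer to each other than the spread within a group (SD 8.54 to 14.8, n = 3).

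miR-6944-3p, from the drebrin intron, had 67.9, 44.1 and 39.9 normalized counts with Ang-(1-7) and 26.7, 16.7 and 39.5 without it. The Ang-(1-7) libraries were all above the hα-syn(A53T) libraries, by a narrow margin between the nearest pair, and the log2 fold change of 0.89 (SE 0.39) did not pass (unadjusted p = 0.0449, adjusted p = 0.205 from limma). miR-6911-3p, from the Dazap1 intron, stood at 19.0, 17.6 and 20.0 with Ang-(1-7) and 40.0, 40.8 and 32.4 without it. All Ang-(1-7) libraries were below all hα-syn(A53T) libraries and close to each other, with a log2 fold change of -0.96 (SE 0.31, unadjusted p = 0.0112, adjusted p = 0.0883 from limma). The other abundant ones had overlapping groups and did not pass. Among them, miR-7080-3p averaged 47.0 ± 14.1 with Ang-(1-7) and 27 ± 13.8 without it (SD, n = 3), miR-7015-3p 35 ± 4.61 and 34.2 ± 10.4, miR-6966-3p 23.8 ± 2.46 and 28.6 ± 3.86, and miR-7047-3p 31.1 ± 2.23 and 20.9 ± 10.4. miR-6952-3p averaged 22.6 ± 5.46 with Ang-(1-7) and 29.2 ± 19.5 without it, miR-6958-3p 22.1 ± 10.4 and 29.2 ± 10.3, and miR-6945-3p 31.4 ± 13.1 and 19.6 ± 6.85 (SD, n = 3). Over these 7, the adjusted p from limma ran from 0.278 for miR-7080-3p to 0.925 for miR-7015-3p.

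The 3p arm was the larger one in most of the hairpins abundant enough to be tested. Of the reads of the set, 74.3%, 74.4% and 66.8% came from 3p arms with Ang-(1-7) and 72.8%, 69% and 61.6% without it (lowest exact 95% interval 58.6% to 64.5%, highest 71.3% to 77.2%). The ratio of the 2 arms was tested in 21 hairpins of the set with both arms listed and a mean arm sum of at least 10, by limma over 347 such hairpins of all annotated miRNAs. In 15 of 21 the 3p arm was above the 5p arm at an adjusted p under 0.05, against 46.4% of all 347, and in 3 of 21 the 5p arm was above the 3p arm, against 45.8%. The median log2 ratio of 3p to 5p was 2.96 in the 21 and 0.17 in all 347. With an arm sum of at least 1, 81 hairpins of the set were fitted, and their median log2 ratio was 0.6. Of these 81, 34 had the larger 3p arm at an adjusted p under 0.05 from limma, against 196 of all 465.

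miR-7043 had the largest log2 ratio toward 3p, 5.43 (SE 0.37, adjusted p = 6.35e-07 from limma). Its mean normalized counts were 59.7 for 3p and 0.608 for 5p. miR-6958, with 25.7 for 3p and 0.454 for 5p, had a log2 ratio of 4.33 (SE 0.38). In a similar way, the log2 ratio was 3.97 for miR-7015, 3.88 for miR-6952, 3.6 for miR-7047, 2.76 for miR-6966 and 2.56 for miR-6911. miR-7080 kept both arms, at 37.0 for 3p and 16.2 for 5p, a log2 ratio of 1.04 (SE 0.24, adjusted p = 0.00243 from limma). miR-6948, at 22.0 for 3p and 13.5 for 5p, had a log2 ratio of 0.60 (SE 0.31, adjusted p = 0.0905 from limma) and did not pass. The opposite case was miR-6896, at 0.171 for 3p and 52.6 for 5p, a log2 ratio of -5.53 (SE 0.26, adjusted p = 4.82e-08 from limma). Its 3p arm gave 1 read in all 6 libraries, although the hairpin ends at the splice acceptor like most others. The 5p arm was also the larger in miR-7092, from Fam50a, and in miR-7021, from Prdm2, with log2 ratios of -3.08 and -2.91. Weak arms stand near the value of 1 read, so the size and the order of these ratios depend on the 1 added to each value before the log was taken.

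**Figure D3:**
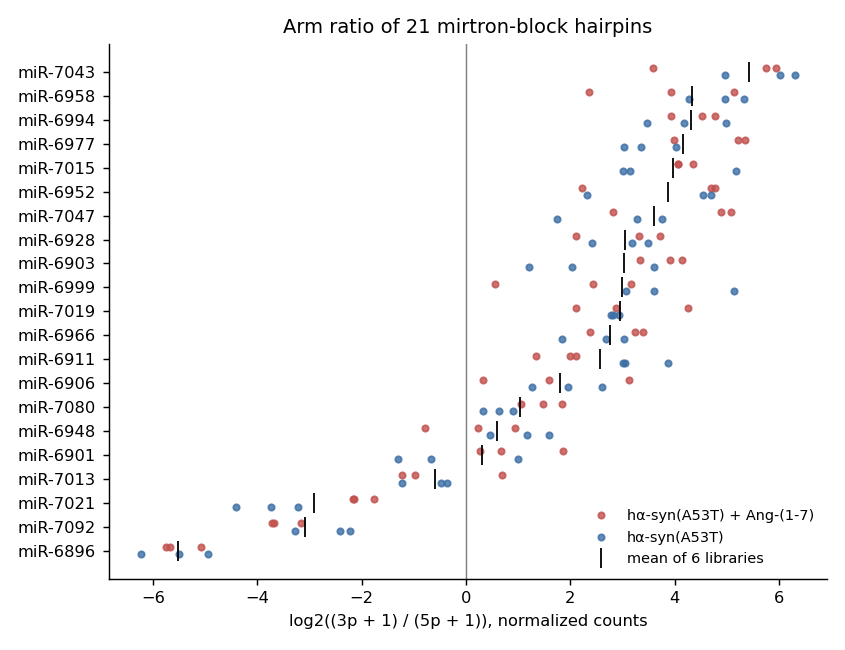
log2 ratio of the 3p arm to the 5p arm, with 1 added to each normalized count, in the 21 hairpins tested; points are libraries (hα-syn(A53T) + Ang-(1-7) red and above, hα-syn(A53T) blue and below, 3 each) and black ticks are means of 6 libraries. miR-7043 lies farthest to the 3p side at 5.43 and miR-6896 farthest to the 5p side at -5.53.

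Arm use did not pass the test between the groups in any of the 21 hairpins. In limma 0 of 347 hairpins (0%) passed an adjusted p under 0.05, while 36 of 347 had an unadjusted p under 0.05, 2 of them in the set. These 2 were miR-7021, where the 5p arm had 7.99, 13.2 and 5.44 normalized counts with Ang-(1-7) and 12.3, 8.34 and 20.2 without it while the 3p arm had 4 reads with Ang-(1-7) and 0 without it, and miR-6911 (difference of the log2 ratio -1.49, SE 0.52). The adjusted p was 0.402 for both.

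Between the groups, 4 mirtron-block miRNAs passed. After Ang-(1-7), miR-6977-3p and miR-6938-3p were higher and miR-6999-3p was lower, all at low levels. The other one that passed, miR-6982-3p, was higher too, but it met the filter on low values only through the group in which it was high. The test covered 1065 annotated miRNAs, those that reached a value of 1 in 3 or more libraries, 136 of the set among them, with limma on log2(normalized count + 1) and the Benjamini-Hochberg adjustment over all 1065. On this scale the change of a miRNA with few reads is understated. Of the 136, 3 were higher, where 5.54% of all 1065 were, and 1 was lower, where 4.04% of all were, so 132 did not pass. At an unadjusted p under 0.05, 6 were higher (11.7% of all) and 5 lower (11.5% of all). The groups did not overlap in 7 that were higher (14.2% of all) and 8 that were lower (14.0% of all). All 6 counts lay under the share over all miRNAs. They include miRNAs that met the filter through 1 group alone and so could not but differ, 1 at an adjusted p under 0.05 (miR-6982-3p), 2 at an unadjusted p under 0.05 (miR-6971-3p as well) and 3 whose groups did not overlap (miR-7019-5p as well). The 129 of the set that were not tested had too few libraries with a value of 1.

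Changes in the set went about as often up as down. The log2 fold change was above 0 in 67 and below 0 in 69 of the 136, with a median of -0.03 for the set and -0.04 for all 1065. The middle 50% of the set ran from -0.46 to 0.50. Precision was lower at these low levels. The median SE of the log2 fold change was 0.602 in the set and 0.361 in the 929 other miRNAs tested. Among the 443 others with a mean at or under 59.7 normalized counts, the highest of the set, a comparison chosen after the values were seen, 3.61% passed and the median SE was 0.539, and in the set 2.94% passed. Variation between libraries of a group was 1.41 times the variance that counting alone gives (median over the set). It was 1.82 times in the 443 others and 5.29 times in all 929 others tested. The 443 were capped at the highest level of the set but not matched in level. Their median mean level was 6.85 normalized counts, against 3.41 in the set.

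**Figure D4:**
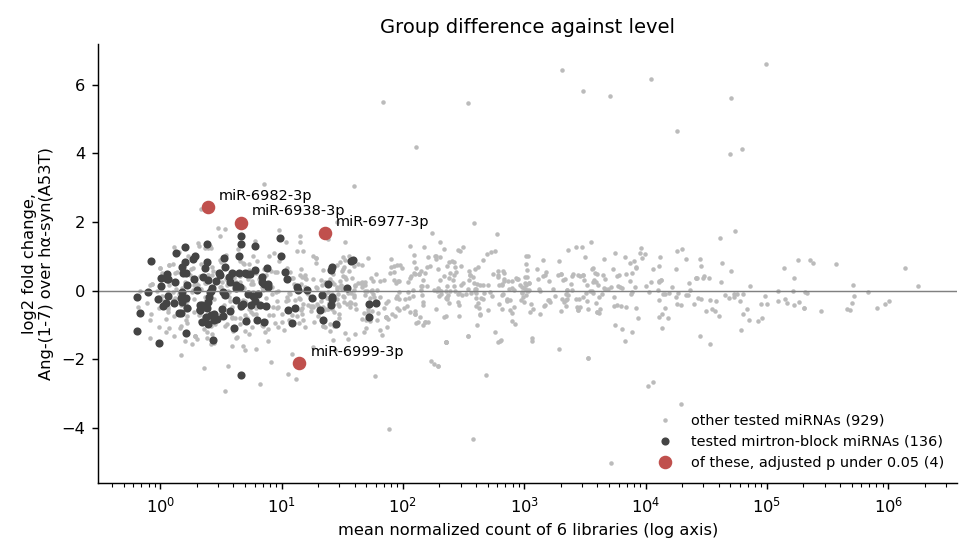
log2 fold change, hα-syn(A53T) + Ang-(1-7) over hα-syn(A53T), against the mean normalized count of 6 libraries (log axis), for 136 mirtron-block miRNAs (dark points) and 929 other miRNAs tested (light points). Red points are the 4 of the set with an adjusted p under 0.05, at log2 fold changes of 1.69, 1.98 and 2.44 and of -2.11, and the set lies at the low end of the levels.

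miR-6977-3p had 36.0, 39.7 and 29.0 normalized counts with Ang-(1-7) and 7.18, 9.27 and 15.2 without it. The lowest Ang-(1-7) library was well above the highest hα-syn(A53T) library. It averaged 34.9 ± 5.40 with Ang-(1-7), against 10.5 ± 4.15 without (SD, n = 3). The log2 fold change was 1.69 (SE 0.38, adjusted p = 0.0259 from limma). Its hairpin (mature arm at chr17:56418850-56418871, minus strand) is 1 of the 3 that begin at the 5′ end of an intron, here a 79-base intron of Ptprs, a receptor tyrosine phosphatase of axons and synapses, and stops 15 bases before the splice acceptor. The 3p arm printed above does not end in AG. The other arm, miR-6977-5p, had 1 read in all 6 libraries.

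miR-6938-3p, from the 3′ end of an intron of Mlh3, a DNA mismatch repair gene (chr12:85245923-85245944, minus strand), had 7.99, 7.71 and 8.17 normalized counts with Ang-(1-7) and 1.03, 1.85 and 1.01 without it. The Ang-(1-7) values are 7 to 9 reads and the others 1 or 2 reads, and the groups did not overlap. The log2 fold change was 1.98 (SE 0.46, adjusted p = 0.0289 from limma). miR-6982-3p stood at 7.99, 2.20 and 4.54 with Ang-(1-7) and was listed at 0 in all 3 hα-syn(A53T) libraries, 15 reads against 0. Its Ang-(1-7) mean was 4.97 times a floor of 3 reads over the hα-syn(A53T) group. The counting error of the 15 reads was left out, so this ratio is not a lower bound. miR-6982-3p met the filter only through the Ang-(1-7) libraries, so a miRNA tested on these terms had to differ. Its adjusted p (0.0358 from limma) is given as a description. With no filter, where all 1393 miRNAs were tested, its adjusted p was 0.0196 from limma. Both miRNAs rest on few reads.

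miR-6999-3p, from the 3′ end of a 304-base intron of Dgkz, the zeta form of diacylglycerol kinase (chr2:91944872-91944893, minus strand), had 7.99, 4.41 and 1.81 normalized counts with Ang-(1-7) and 24.6, 34.3 and 11.1 without it. All Ang-(1-7) libraries were below all hα-syn(A53T) libraries, and both groups were widely spread. It averaged 4.74 ± 3.10 with Ang-(1-7), against 23.3 ± 11.6 without (SD, n = 3). The log2 fold change was -2.11 (SE 0.56, adjusted p = 0.0437 from limma).

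These 4 calls did not hold in every setting. miR-6977-3p no longer passed without replicate 1 or 2 of the Ang-(1-7) group (adjusted p = 0.0831 and 0.0703 from limma) or of the hα-syn(A53T) group (0.0806 and 0.104), and miR-6938-3p without any 1 of the 6 libraries (0.0575 to 0.0965). The call of miR-6982-3p ended without replicate 1, 2 or 3 of the hα-syn(A53T) group (0.104, 0.133 and 0.0695 from limma), and without an Ang-(1-7) library it had too few values to be tested. miR-6999-3p no longer passed without replicate 2 or 3 of the Ang-(1-7) group (0.106 and 0.081 from limma), without replicate 1 or 2 of the hα-syn(A53T) group (0.127 and 0.192), with voom (0.0681), with a pseudocount of 0.1 (0.0611), with no filter (0.059) or with quantile normalization (0.0562). With a filter of 5 in 3 libraries miR-6982-3p was not tested. Where they were tested, each kept its direction in every setting. Their groups did not overlap, so leaving out a library or changing the pseudocount or filter could not have reversed the direction. The epithelial markers were higher and the muscle markers lower in the same libraries, and their part in these 4 differences was not tested.

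Of the members with an unadjusted p under 0.05 that did not pass, miR-6934-5p, from Tbc1d16, a regulator of Rab proteins, came nearest. It had 0, 0 and 2.72 normalized counts with Ang-(1-7), 3 reads in all, and at 14.4, 5.56 and 5.06 without it. The groups did not overlap, with a log2 fold change of -2.45 (SE 0.68, adjusted p = 0.0502 from limma), and it passed without Ang-(1-7) replicate 3 (0.0161), with no filter (0.0484) and with quantile normalization (0.0481). miR-6947-5p, from Actr8, a subunit of a chromatin remodeller, stood at 8.99, 6.61 and 6.35 with Ang-(1-7) and 4.10, 0.927 and 1.01 without it (adjusted p = 0.103 from limma). miR-6929-3p, from Ptges3l, stood at 6.99, 14.3 and 6.35 with Ang-(1-7) and 3.08, 3.71 and 2.02 without it (adjusted p = 0.136 from limma). Neither of these overlapped between the groups. miR-6971-3p was at 0 in each Ang-(1-7) library and had 6 reads over the hα-syn(A53T) libraries. Its hα-syn(A53T) mean was 1.94 times a floor of 3 reads over the Ang-(1-7) group, without the counting error of the 6 reads. miR-6971-3p met the filter only through the hα-syn(A53T) libraries, so its p is no support for a difference.

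**Figure D5:**
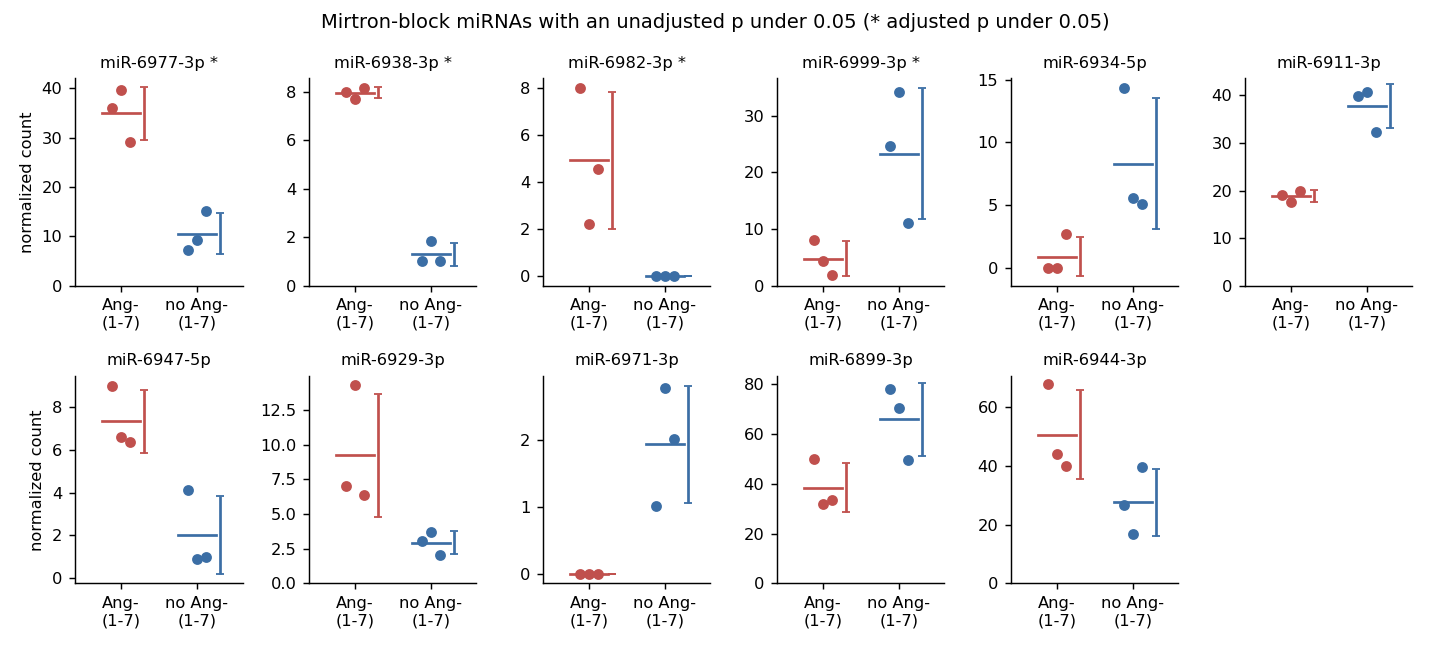
Normalized counts of the 11 mirtron-block miRNAs with an unadjusted p under 0.05, ordered by p, in hα-syn(A53T) + Ang-(1-7) libraries (red, left) and hα-syn(A53T) libraries (blue, right, marked no Ang-(1-7)); points are libraries, horizontal lines group means and whiskers the SD (n = 3). Stars mark the 4 with an adjusted p under 0.05, and only in miR-6899-3p do the groups overlap.

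Among those with a mean of at least 5, groups that did not overlap were also found in miR-6948-3p and in miR-7092-5p. miR-6948-3p had 20.0, 6.61 and 23.6 normalized counts with Ang-(1-7) and 29.7, 25.9 and 26.3 without it, and miR-7092-5p at 7.99, 12.1 and 11.8 with Ang-(1-7) and 13.3, 17.6 and 15.2 without it. Both were lower and neither passed (adjusted p = 0.308 and 0.454 from limma). miR-7019-3p, singled out after its values were seen because it ends an intron of Pink1, a mitochondrial kinase known from familial Parkinson's disease, stood at 18, 3.31 and 6.35 with Ang-(1-7) and 14.4, 18.5 and 13.2 without it. Its groups overlapped through Ang-(1-7) replicate 1, and the log2 fold change of -0.94 (SE 0.54) did not pass (adjusted p = 0.330 from limma).

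Most of the listed miRNAs outside the block that skip Drosha had an arm above the levels of the block. The levels of other hairpins outside the block at intron ends were not compared. The list held the mirtrons miR-877, miR-1224, miR-1981 and miR-702 and the capped miRNAs miR-320 and miR-484, which are made from the 5′ end of a transcript without Drosha. In GRCm38 the hairpins of miR-877 (in Abcf1), miR-1224 (in Vwa5b2) and miR-1981 (in Marc2) fill whole introns of 85, 85 and 82 bases, and that of miR-702 overlaps an exon of Plod3. Of 11 arms measured, 0 was higher (5.54% of all 1065 tested, and both arms of miR-1981 at an unadjusted p under 0.05) and 2 were lower (4.04% of all) in limma, and these 2 were arms of the capped ones. miR-320-3p had 4306, 4052 and 5858 normalized counts with Ang-(1-7) and 9945, 10981 and 11129 without it, a log2 fold change of -1.19 (adjusted p = 0.00855 from limma). miR-484 stood at 4598, 3793 and 3526 with Ang-(1-7) and 10406, 9952 and 5979 without it, a log2 fold change of -1.11 (adjusted p = 0.0287 from limma). In both, the groups did not overlap. miR-320-3p did not pass without replicate 2 of the hα-syn(A53T) group (0.0601), nor did miR-484 without replicate 1 or 2 of the Ang-(1-7) group (0.0511 and 0.0717 from limma) or of the hα-syn(A53T) group (0.113 and 0.14).

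The mirtrons of this list did not pass. miR-1981-5p, the most abundant of them, had 7649, 7113 and 4927 normalized counts with Ang-(1-7) and 4707, 3531 and 4310 without it, with groups that did not overlap (log2 fold change 0.63, adjusted p = 0.139 from limma). Its other arm, miR-1981-3p, averaged 290 ± 38.9 with Ang-(1-7) and 199 ± 12 without it (SD, n = 3). miR-1224-5p averaged 1078 ± 524 with Ang-(1-7) and 1603 ± 267 without it, miR-877-3p 205 ± 43.7 and 204 ± 35, and miR-877-5p 195 ± 108 and 203 ± 79.9 (SD, n = 3). The remaining arms, miR-1224-3p, miR-702-3p, miR-702-5p and miR-320-5p, averaged 5.82, 17.8, 1.21 and 2.68 with Ang-(1-7) and 7.88, 25.7, 3.05 and 0.683 without it. Of these mirtrons, the larger arms of miR-1981, miR-1224 and miR-877 were above the highest mean of the block, 59.7 normalized counts, and that of miR-702, 21.7, was within its range.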

How the data were processed

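Small RNA of the right SN was measured in 6 libraries, 3 hα-syn(A53T) + Ang-(1-7) and 3 hα-syn(A53T). The signal values are normalized counts deposited by the authors, who, per the paper and the submitters' notes, sequenced on a NovaSeq, matched reads to the genome with Bowtie 1.2.3 (the notes name mm9) and normalized with DESeq2 1.10.1. For trimming, miRBase release and counting the sources used here give nothing. The table also holds the authors' own comparison (fold changes and p-values), which was not used, and 1231 predicted loci with separate size factors, which were left out. Annotated values were whole multiples of what 1 read is worth in each library (tolerance 1e-06), and the reads were recovered from this.

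The members, lists and tests were chosen with earlier results of these data known. In R 4.3.3 (with the data.table package, version 1.17.8), limma 3.58.1 was run with a trend on log2(value + 1), for the miRNAs that reached 1 in at least 3 libraries, and checked on simulated data. Arm ratios were fitted the same way for hairpins with an arm sum of at least 10. A count test was planned only for raw counts, so limma on the log scale was used, with voom on recovered reads as an alternative. Other alternatives were the pseudocount, filter, scaling, a block for the replicate number, leaving out each library, identical values kept once, and limits on reads and arms. Named were the 12 most abundant members, those with an unadjusted p under 0.05, up to 6 per direction with a mean of at least 5 and no overlap, the 10 most abundant hairpins with both arms listed, and the arms of 6 other Drosha-independent miRNAs. Sequences are RefSeq's (GRCm38.p6) and introns GENCODE's (vM21), read with Python 3.11.15, pandas 2.3.3 and scipy 1.17.1. The sequence and host gene of 1 miRNA are not reported here. Since the deposited build is another one, no deposited coordinate was used. Figures were drawn with matplotlib 3.10.9.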

Additional observations from a re-analysis of the deposited data

How the results depend on the processing

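Of the 136 mirtron-block miRNAs tested, 3 were higher and 1 lower (5.54% and 4.04% of all 1065). The 3 include miR-6982-3p, which met the filter only through the Ang-(1-7) group. With each library left out, 0 to 1 were higher and 0 to 1 lower in limma (at an unadjusted p under 0.05, 4 to 9 higher and 3 to 7 lower). In these fits 27 to 111 of all miRNAs passed, against 102 in the main fit. With a pseudocount of 0.1 and with voom, 0 were lower (5 and 4 at an unadjusted p under 0.05), and 81 and 101 of all 1065 passed. Fits that left a library out had fewer samples, and otherwise the cause was not tested. Groups did not overlap in 7 higher and 8 lower (14.2% and 14.0% of all 1065). With a library left out these were 10 to 17 and 10 to 16, since fewer values have to be apart. With a filter of 5 in 3 libraries 5 were lower, since fewer were tested. For these alternative settings, the unadjusted and non-overlap counts over all miRNAs are not given. The counts of the set in them can therefore not be set against a background. The median log2 fold change stayed between -0.11 and 0.10. The 3p arm was above the 5p arm in 15 of 21 hairpins and below it in 3 (161 and 159 of all 347). With an arm sum of at least 1 these were 34 and 14 of 81 (196 and 185 of all 465). In that setting the share with the larger 3p arm was about that over all hairpins, and the median log2 ratio of the set was 0.6. With an arm sum of at least 50 they were 2 and 1 of 3 (129 and 130 of all 274). With unlisted arms set to 0 they were 21 and 5 of 29 (229 and 199 of all 454). The number fitted changed between these settings. The arm ratio differed between the groups in 0 hairpins of the set in every limma setting (0 to 6 at an unadjusted p under 0.05). A median of 161 of the set were detected per library, 84.5 at 3 reads and 28.5 at 10 reads. Their share, a mean of 68.9 reads per 1000000, was 110 without the 5 most abundant miRNAs in the total. Some miRNAs that did not pass changed sign. With each library left out, the log2 fold change of miR-7015-3p ran from -0.17 to 0.27, that of miR-6952-3p from -0.59 to 0.30, that of miR-877-3p from -0.16 to 0.14 and that of miR-877-5p from -0.55 to 0.33. miR-877-3p was also at -0.091 with quantile normalization and -0.00082 with library totals. Libraries with the same number shared only that number (correlations of their deviations 0.123, -0.0866 and 0.177). A summary deposited with the table numbers the hα-syn(A53T) libraries differently from its columns, so these numbers are in doubt as well. With the replicate block 3 of the set were higher and 1 lower, and 112 instead of 102 of all miRNAs passed. edgeR was not run, because whole reads are recovered within the annotated miRNAs but not over the deposited columns. Most of the set had few reads at this depth, with a median mean level of 1.02.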
